A study of Homo sapiens with 2 samples.

Results

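Translation initiation factors are the proteins that bring the initiator tRNA, the small ribosomal subunit and the capped end of an mRNA together. The genes described here are 38 of the human set, from EIF1 to EIF6. They were chosen by symbol, and each gene was followed through the RefSeq transcripts of that symbol and through newly assembled transcripts that share an exact intron with them on the same strand. Of 23203 RefSeq genes placed at 1 locus, 11548 had a mean of 1 FPKM or more over both libraries, and 37 of the 38 were among them. The remaining gene was EIF3C.

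The data were 2 RNA sequencing libraries of HCT116, an established line from a human colorectal carcinoma that carries a tetracycline-inducible construct (T-Rex) for knockdown of USP49, a protease that removes ubiquitin from histone H2B. One library is labelled USP49 knockdown and the other control, with 36 h after doxycycline given in the treatment text of both. The labels do not say whether the RNA control received doxycycline, and they name no clone and no hairpin sequence. RNA was poly(A)-selected and copied from random primers, with no step described that keeps the strand. There was 1 library per group, so every difference below is between those libraries and has no replicate check, and no p-value is given.

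Each library was deposited as its own Cufflinks assembly on hg18, with a value per transcript model. The library labelled knockdown held 19961665 fragments and the control library 16378455. Levels are FPKM, fragments relative to exon length in kilobases and to the library total in the usual unit, rebuilt from the deposited values and scaled to those totals. A log2 ratio is log2 of (FPKM in the library labelled knockdown + 1) over (FPKM in control + 1), and intervals are exact 95% Poisson intervals, which cover counting error only. USP49, minus strand of chromosome 6 at 41873361 to 41971077, had 1.10 FPKM on its exons in the library labelled knockdown (0.859 to 1.40) and 0.907 in control (0.665 to 1.21). The sum over its models ran the other way, 1.10 FPKM in the library labelled knockdown against 2.88 in control. Before scaling to the totals, its models held 69 fragments in the library labelled knockdown and 206 in control. The control fragments sat on assembled models with other ends, and by even spreading over those models 46.5 of them were counted on the USP49 exons. Loss of USP49 was not settled by these files. Of 12 colorectal epithelial markers, 9 were at 1 FPKM or more in both libraries, with summed levels of 682 and 742 FPKM in the library labelled knockdown and control; CDX1 and VIL1 were listed at 0 in both. Of 6 blood markers CD68 alone reached 1 FPKM, and the sum was 13.0 FPKM in the library labelled knockdown and 9.52 in control. Of 8 stromal and endothelial markers COL1A1 alone did, and the sum was 6.70 FPKM in the library labelled knockdown and 6.97 in control. Listed at 0 in both were 3 blood markers, PTPRC among them, and 3 stromal and endothelial ones, DCN and CDH5 among them.

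As background, initiation begins when eIF2, loaded with GTP and initiator tRNA, joins the small subunit with eIF1 and eIF3. The cap is bound by eIF4E, which sits on the scaffold eIF4G with the helicase eIF4A and its helpers eIF4B and eIF4H, and 4E-BP proteins block that contact. eIF5 and eIF5B complete start codon selection and joining of the large subunit, and eIF2B reloads eIF2 with GTP. Many mRNAs of the translation machinery begin with a pyrimidine tract, the TOP motif, through which mTOR signalling controls their translation.

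The sequences that the splicing results turn on come first. All were read from GENCODE v29 transcripts on GRCh38 whose internal exon lengths equal those of the RefSeq model in the files. The first is the EIF4H alternative exon with 20 flanking transcript bases on either side, exon in capitals (60 bases, chromosome 7, plus strand, hg18 73242513 to 73242572). The second joins EIF4H exons 3 and 4 (hg18 73241939 to 73242184), with capitals for the 39 bases that the assembled model of the library labelled knockdown keeps. The third is the 78-base EIF3K exon that an assembled model of that library skips (chromosome 19, plus strand, hg18 43815081 to 43815158), and the fourth the 114-base alternative exon of EIF4G2 (chromosome 11, minus strand, hg18 10779784 to 10779897), each in capitals. The last pair are tandem acceptors of EIF2B4 (chromosome 2, minus strand) and EIF4G1 (chromosome 3, plus strand), with the 3 optional bases in capitals between 18 bases of either side.
EIF4H alternative exon: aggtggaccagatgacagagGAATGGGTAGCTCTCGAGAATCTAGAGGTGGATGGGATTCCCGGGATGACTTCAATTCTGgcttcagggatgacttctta
EIF4H exons 3 and 4: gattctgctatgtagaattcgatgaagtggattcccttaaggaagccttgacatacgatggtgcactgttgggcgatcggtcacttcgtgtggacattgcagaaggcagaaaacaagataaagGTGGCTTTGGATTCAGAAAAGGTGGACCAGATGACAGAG
EIF3K skipped exon: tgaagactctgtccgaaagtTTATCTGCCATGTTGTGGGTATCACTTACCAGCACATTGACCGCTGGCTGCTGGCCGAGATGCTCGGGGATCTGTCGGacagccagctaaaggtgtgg
EIF4G2 alternative exon: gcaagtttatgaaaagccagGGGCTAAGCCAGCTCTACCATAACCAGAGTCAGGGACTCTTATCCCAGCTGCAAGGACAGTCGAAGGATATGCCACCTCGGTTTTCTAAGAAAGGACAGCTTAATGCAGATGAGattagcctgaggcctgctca
EIF2B4 tandem acceptor: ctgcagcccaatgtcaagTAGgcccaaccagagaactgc
EIF4G1 tandem acceptor: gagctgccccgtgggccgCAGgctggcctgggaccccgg

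Levels of the factors differed widely from gene to gene and little between the libraries. Fragments on the exons of the 38 genes, from all models, made up 0.998% of all fragments in the library labelled knockdown and 0.977% in control. The median level was 53.9 FPKM in the library labelled knockdown and 54.2 FPKM in control, and 15 genes were above 100 FPKM in each. EIF3H, a core subunit of eIF3, was highest, with 469 FPKM in the library labelled knockdown and 448 in control. EIF4G2, a relative of the scaffold that lacks the eIF4E-binding region, was next, with 436 FPKM in the library labelled knockdown and 415 in control. EIF4E, the cap-binding protein, was the lowest measured factor, with 5.98 FPKM in the library labelled knockdown (5.51 to 6.48) and 5.28 in control (4.79 to 5.80). EIF3C had 19.0 fragments in the library labelled knockdown and 10 in control, or 0.280 and 0.179 FPKM. The RefSeq model of its near-identical copy EIF3CL was placed over EIF3C on chromosome 16, at 28298401 to 28322663 on the same strand. The all-model values of EIF3CL, 0.317 FPKM in the library labelled knockdown and 0.203 in control, thus count nearly the same fragments. They are no separate measure of the copy, and the level of EIF3C is uncertain.

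**Figure D1:**
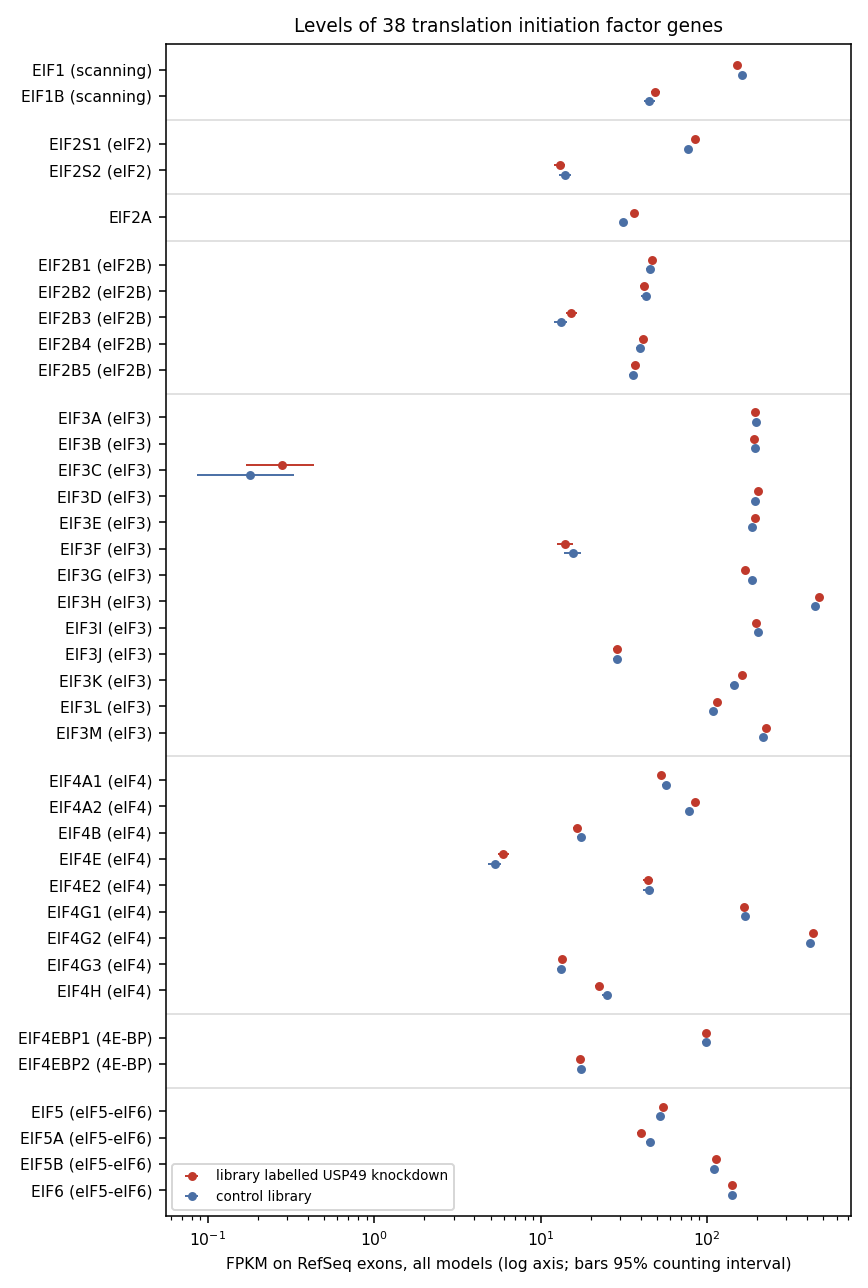
Level of each of the 38 genes in FPKM on a log axis, from all models over its RefSeq exons, in the library labelled USP49 knockdown (red, upper point) and the control library (blue, lower point), grouped by complex; bars are 95% counting intervals. The libraries' points lie close together for each gene, while genes run from EIF3C below 1 FPKM to EIF3H at 469 and 448 FPKM.

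Copies elsewhere in the genome bear on how these levels can be read. GENCODE v29 names 68 pseudogenes after 18 of the members, 13 of them after EIF4A1, 9 after EIF4B and 7 after EIF1. How reads that match several places were counted is not given in the sources used here. The 18 members with a named pseudogene had a median of 48.6 FPKM in the library labelled knockdown and 48.8 in control, and the other 20 had 98.7 FPKM in the library labelled knockdown and 93.2 in control. The part of shared reads in that gap was not tested, and the levels of the 18 are uncertain for that reason.

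No factor differed by 2-fold on its exons. Counting the models that share an intron with each gene, 0 of 37 genes were past 2-fold in either direction, against 1.05% of the 11548 measured genes higher and 1.32% lower. Past a log2 ratio of 0.32 in size, the smaller threshold used here, EIF4A1 was higher and EIF4A2 lower in the library labelled knockdown, 1 of 37 each way, where 3.54% of all genes were higher and 4.90% lower. Ratios were above 0 for 22 members and below 0 for 15, against 49.4% of all genes above and 50.6% below. The median log2 ratio of the members was 0.04 and that of all measured genes −0.0019.

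A minority of the members differed by more than their counting intervals. The intervals of the libraries did not overlap, with the library labelled knockdown higher, for 7 of 37 (EIF2S1, EIF2A, EIF3H, EIF3K, EIF4A1, EIF4G2 and EIF5A), and with it lower for 1, EIF4A2. Over all measured genes the shares were 9.54% and 10.3%. Deeply covered genes have narrow intervals, and of the 4522 genes with 1000 fragments or more in both libraries the shares were 13.9% and 13.4%. Of the 30 members at that depth, 6 were higher and 1 lower.

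Fragments that models of other names, of no name or of the other strand place on the same exons bear on these values, since the files give no strand of reads. With all models of either strand counted, 0 of 37 members were past 2-fold, against 0.597% of 12390 genes higher and 0.856% lower, and 0 were past a log2 ratio of 0.32, against 1.93% higher and 2.98% lower. Above 0 were 21 members and 48.3% of all genes. The ratios then ran from −0.18 for EIF5A to 0.20 for EIF2A. EIF4A1, EIF4A2 and EIF5A changed sign between the measures, and no other member moved by more than its counting interval. Intervals were then apart for 6 members that were higher (EIF2S1, EIF2A, EIF3H, EIF3K, EIF4A2 and EIF4G2) and 2 that were lower (EIF3G and EIF5A), against 6.92% and 7.38% of all genes and 12.5% and 12.1% of genes with 1000 fragments or more.

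**Figure D2:**
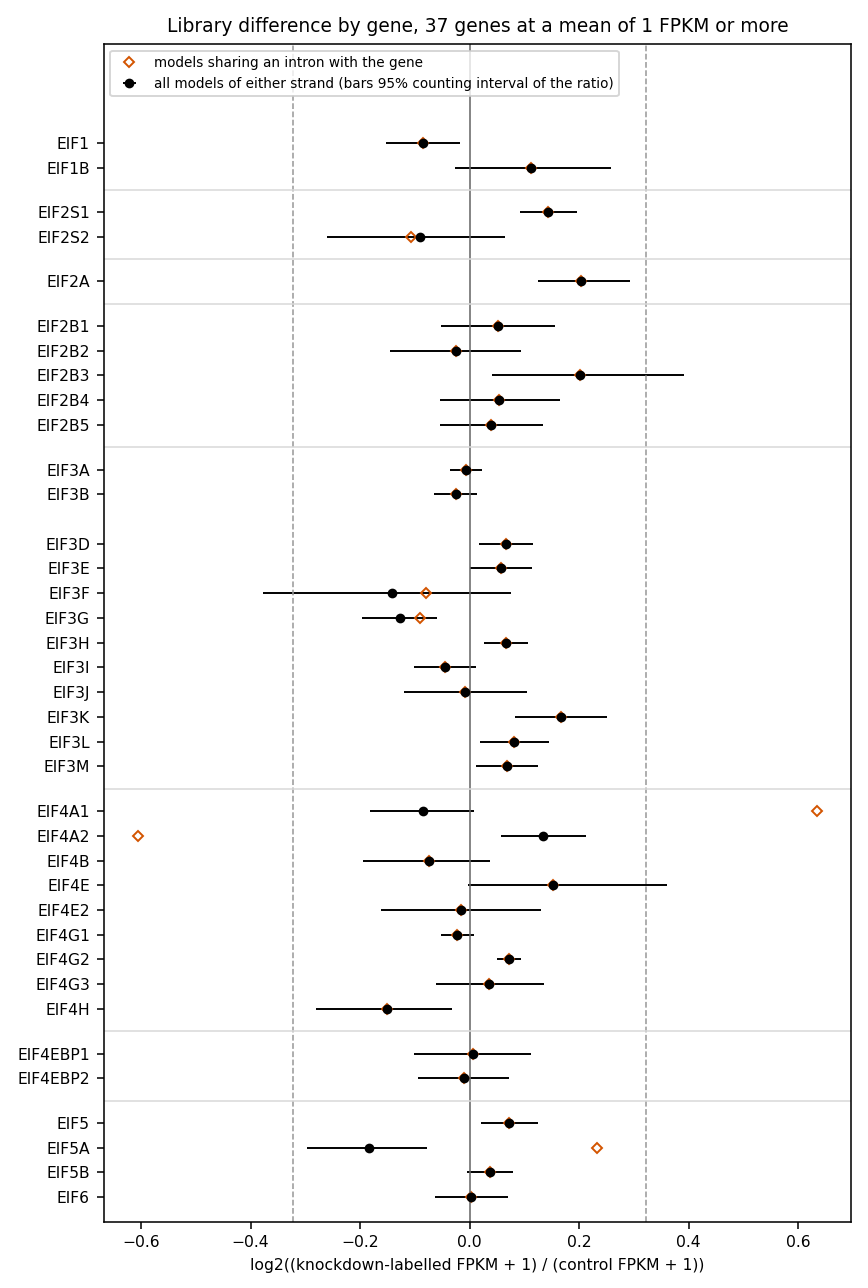
Log2 ratio of the library labelled knockdown over control for 37 genes, from all models of either strand (black, with the 95% counting interval of the ratio taken without the added 1 FPKM) and from models that share an intron with the gene (orange diamonds); dashed lines mark 0.32 above and below 0. All black points lie between −0.18 and 0.20, and only the EIF4A1 and EIF4A2 diamonds lie outside the dashed lines, at 0.63 and −0.61.

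The eIF4A helicases, paralogues that unwind the mRNA leader, gave the widest gap between the measures. EIF4A1 (chromosome 17, 7416748 to 7423048, plus strand) had 53.2 FPKM from its own models in the library labelled knockdown and 33.9 in control, a log2 ratio of 0.63. With all models it had 53.2 FPKM (50.8 to 55.6) and 56.4 FPKM (53.8 to 59.2), a log2 ratio of −0.08. In the library labelled knockdown an assembled model of 14 exons ran from EIF4A1 through MPDU1 and CD68 and held 2576 fragments. CD68 is the blood marker named above, so its level shares a model with EIF4A1 there. In control, 2 models outside the gene's own lay over EIF4A1 exons: an unspliced one without a name put 409.9 fragments there and one named for SENP3 266.3. EIF4A2 (chromosome 3, 187984055 to 187990379, plus strand) had 50.5 FPKM from its own models in the library labelled knockdown and 77.4 in control, a log2 ratio of −0.61. With all models it had 85.2 FPKM (82.3 to 88.2) and 77.6 FPKM (74.5 to 80.8), a log2 ratio of 0.13. A minus-strand model named for the neighbouring gene RFC4, found in the library labelled knockdown, held 4642 fragments, of which 1270 fell on EIF4A2 exons. The level of EIF4A1 over that of EIF4A2, from all models, was 0.624 in the library labelled knockdown and 0.727 in control.

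**Figure D3:**
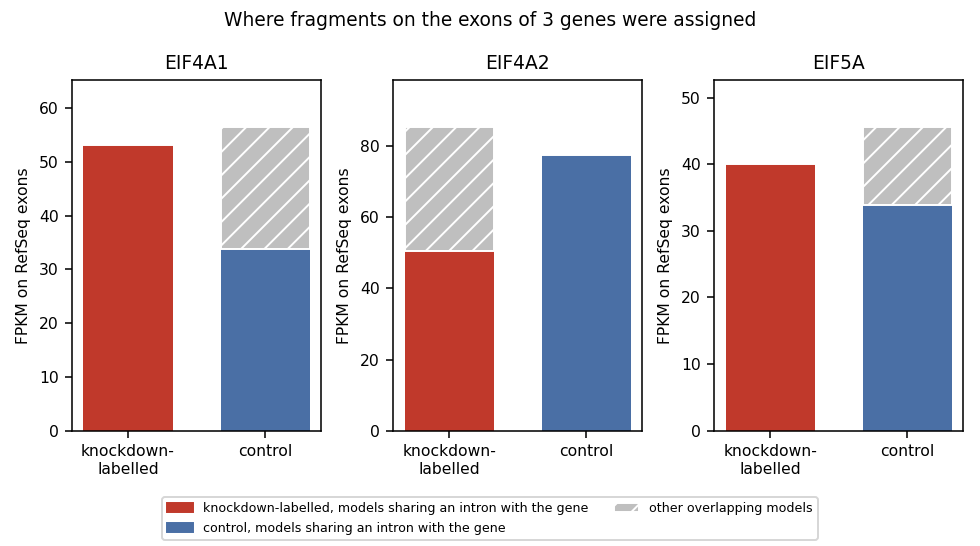
FPKM on the RefSeq exons of EIF4A1, EIF4A2 and EIF5A in the library labelled knockdown (left bar) and control (right bar), split into models that share an intron with the gene (solid) and other overlapping models (hatched). The hatched part stands in the control bar for EIF4A1 and EIF5A and in the knockdown-labelled bar for EIF4A2, and the whole bars differ less than the solid parts for EIF4A1 and EIF4A2.

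EIF5A, the hypusine-bearing factor that also acts in elongation, behaved likewise. It lies on chromosome 17 at 7151042 to 7156506, plus strand. It had 40.0 FPKM from its own models in the library labelled knockdown and 33.9 in control, a log2 ratio of 0.23, and from all models 40.0 FPKM in the library labelled knockdown and 45.5 in control, a log2 ratio of −0.18. An unnamed 2-exon model in control carried 337.6 fragments on its exons. A pair of first exons was in use: transcripts starting at the downstream one, NM_001143761, held 28.7% of the FPKM in the library labelled knockdown and 36.9% in control, and NM_001970 held the rest. These shares leave out the unnamed control model, which begins at 7151558, near the NM_001970 start at 7151580. Its part in the difference was not tested.

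For the factors that select the start codon, levels were close between the libraries. Gene levels of the members here and below are from all models unless stated. EIF1, which guards against wrong start codons, had 152 FPKM in the library labelled knockdown (147 to 157) and 161 in control (156 to 167), a log2 ratio of −0.08. Its paralogue EIF1B had 48.8 FPKM in the library labelled knockdown and 45.0 in control, a log2 ratio of 0.11, with overlapping intervals. The level of EIF1 over EIF1B was 3.12 in the library labelled knockdown and 3.58 in control. A control model of EIF1 that keeps its first and second introns held 17.8% of the FPKM there and had no counterpart in the library labelled knockdown.

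The eIF2 subunits did not move together. EIF2S1, the alpha subunit that stress kinases phosphorylate, had 84.6 FPKM in the library labelled knockdown (82.7 to 86.7) and 76.6 in control (74.5 to 78.7), a ratio of 1.11 (1.07 to 1.15). By the sum over models its log2 ratio was −0.67, against 0.14 on exons. The control library split the gene between the RefSeq model and an assembled model of 886 bases, and the short model alone added 73.1 FPKM. EIF2S2, the beta subunit, had 13.1 FPKM in the library labelled knockdown and 14.0 in control, with overlapping intervals. EIF2A, a separate protein that can bind initiator tRNA and is no subunit of eIF2, had 36.2 FPKM in the library labelled knockdown (34.9 to 37.6) and 31.3 in control (30.0 to 32.7), a ratio of 1.16 (1.09 to 1.23). An unannotated 8-exon form of EIF2A was assembled in both libraries, with 37.5% of the FPKM in the library labelled knockdown and 26.6% in control.

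The 5 subunits of eIF2B, the exchange factor that reloads eIF2, lay within a log2 ratio of −0.03 to 0.20. EIF2B3 had the highest ratio, with 15.3 FPKM in the library labelled knockdown (14.2 to 16.5) and 13.2 in control (12.0 to 14.4), and its intervals overlapped. EIF2B1 had 46.9 FPKM in the library labelled knockdown and 45.2 in control, and EIF2B2 had 41.9 in the library labelled knockdown and 42.7 in control. EIF2B4 had 41.2 FPKM in the library labelled knockdown and 39.7 in control, and the catalytic subunit EIF2B5 had 36.7 in the library labelled knockdown and 35.7 in control. The other 4 subunits thus stood between 35.7 and 46.9 FPKM in both libraries, with EIF2B3 below them.

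The eIF3 subunits, which form the largest initiation factor, included the most abundant of these transcripts. The 12 measured subunits had a median of 193 FPKM in the library labelled knockdown and 190 in control, and their log2 ratios split evenly, 6 above and 6 below 0. EIF3A, EIF3B, EIF3D, EIF3E and EIF3I stood between 187 and 203 FPKM in both libraries. EIF3F, a core subunit, had 14.0 FPKM in the library labelled knockdown and 15.6 in control, and EIF3J, a loosely bound one, 28.6 in the library labelled knockdown and 28.8 in control. EIF3K, a small core subunit, had 162 FPKM in the library labelled knockdown (156 to 169) and 145 in control (138 to 151), a ratio of 1.12 (1.06 to 1.19). EIF3G, an RNA-binding subunit, had 170 FPKM in the library labelled knockdown (164 to 175) and 185 in control (179 to 192) from all models, a ratio of 0.915 (0.873 to 0.960). A plus-strand model named for PPAN overlaps EIF3G in both libraries, and without it the EIF3G intervals overlapped, at 165 FPKM in the library labelled knockdown and 176 in control. EIF3H had a ratio of 1.05 (1.02 to 1.08), EIF3L had 115 FPKM in the library labelled knockdown and 109 in control, and EIF3M 227 in the library labelled knockdown and 216 in control.

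Scaffold, cap-binding and helper factors of the eIF4 group were likewise close. EIF4G1, the main scaffold, had 167 FPKM in the library labelled knockdown and 169 in control, EIF4G2 was slightly higher at a ratio of 1.05 (1.04 to 1.07), and EIF4G3 had 13.5 FPKM in the library labelled knockdown and 13.2 in control. EIF4E2, a cap-binding relative that represses translation, had 44.1 FPKM in the library labelled knockdown and 44.6 in control, 7.38 times the level of EIF4E in the library labelled knockdown and 8.45 times in control. EIF4B had 16.5 FPKM in the library labelled knockdown and 17.4 in control. EIF4H had 22.4 FPKM in the library labelled knockdown (21.1 to 23.8) and 25.0 in control (23.5 to 26.6), or −0.15 on the log2 scale, and the intervals overlapped. The repressors EIF4EBP1 and EIF4EBP2 had ratios of 1.00 (0.933 to 1.08) and 0.992 (0.937 to 1.05). EIF4EBP1 had 99.0 FPKM in the library labelled knockdown and 98.7 in control, and EIF4EBP2 17.3 in the library labelled knockdown and 17.4 in control.

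Of the factors for subunit joining, EIF5, the GTPase-activating partner of eIF2, had 54.7 FPKM in the library labelled knockdown and 52.0 in control, a ratio of 1.05 (1.01 to 1.09). By the sum over models its log2 ratio was 0.73, against 0.07 on exons, and an assembled model of 1700 bases in the library labelled knockdown added 47.5 FPKM to that sum. EIF5B, the GTPase of the joining step, had 113 FPKM in the library labelled knockdown and 109.9 in control, and EIF6, which keeps the large subunit apart until it is mature, 141 FPKM in both.

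The EIF4H alternative exon shown above was included in both libraries. Models with the exon held 100% of the FPKM of models that span it, 20.4 FPKM in the library labelled knockdown and 21.0 FPKM in control, and the RefSeq skipping form NM_031992 was listed at 0 in both. The libraries differed upstream of it. In control, 80.8% of the EIF4H FPKM lay on the RefSeq chain NM_022170, and in the library labelled knockdown none did. There, 84.3% lay on an assembled 6-exon model that skips the 65-base exon 3 and enters exon 4 at 73242146, so that 39 of its 97 bases remain, shown in capitals in the joined sequence. The 123 bases it lacks, 65 and 58, are a multiple of 3. A 2-exon model at the 3′ end recurred, with 15.7% of the FPKM in the library labelled knockdown and 19.2% in control.

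EIF3K showed a second form in the library labelled knockdown. The 78-base exon, also a multiple of 3, was included in 63.7% of the FPKM there, with 110 FPKM on the RefSeq model and 62.5 FPKM on an assembled 7-exon model that skips it. In control all 145 FPKM lay on the RefSeq model NM_013234.

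**Figure D4:**
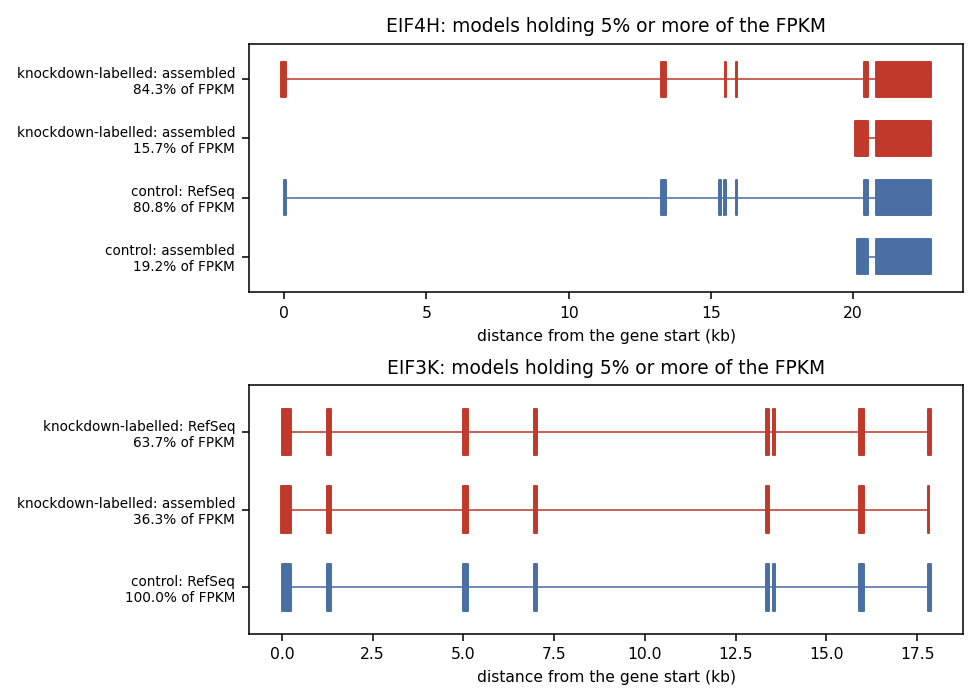
Exons (boxes) and introns (lines) of the EIF4H and EIF3K models that hold 5% or more of the gene's FPKM, by distance from the gene start in kb, for the library labelled knockdown (red, upper rows) and control (blue, lower rows). The main EIF4H model of the library labelled knockdown lacks one exon near 15 kb that the control RefSeq model has, and an EIF3K model with 36.3% of the FPKM lacks the exon near 13.5 kb.

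Such form differences were common in these files, so the counts need the background. Of 14 alternative exons of members with 5 FPKM or more in both libraries, 6 differed in inclusion by 10 percentage points or more, in EIF3K, EIF4B, EIF4E2, EIF4G3 and EIF5, against 48.8% of 4828 such exons in all genes. A 119-base exon of EIF4B was in 0% of the FPKM in the library labelled knockdown and 72.8% in control, and a 79-base exon of assembled EIF4E2 models in 0% in the library labelled knockdown and 100% in control. That EIF4E2 exon lies past the RefSeq end of the gene. It was spanned by an assembled model in each library, with 15.9% of the gene's FPKM in the library labelled knockdown and 17.2% in control. The 209-base exon near the start of EIF5 was in 48.3% in the library labelled knockdown and 100% in control. The form that skips it is the 1700-base assembled model named above, with 51.7% of the gene's FPKM in the library labelled knockdown but 23.1% of its fragments. Of the 9 exons whose forms are both in RefSeq, 2 differed by that much, against 24.7% of 3028, and both lie in EIF4G3. The 111-base exon of EIF4G3 was in 12.5% of the FPKM in the library labelled knockdown and 30.8% in control, and its 21-base exon in 0% in the library labelled knockdown and 20.3% in control. These EIF4G3 shares rest on 15.6 FPKM in the library labelled knockdown and 14.7 in control, and 9.14 of the 15.6 FPKM lay on an assembled 34-exon model that control lacks. On RefSeq models alone, a comparison chosen after seeing the data, the 111-base exon was in 30.3% in the library labelled knockdown and 30.8% in control, so its difference was gone, while the 21-base exon kept its shares. That left 1 of 8 exons of members past 10 points, against 20.8% in all genes.

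Events whose forms are both in RefSeq were counted over all models that carry either form, assembled ones included. The 114-base exon of EIF4G2 was then in 88.2% of the FPKM in the library labelled knockdown and 83.5% in control, and on RefSeq models alone in 84.7% in the library labelled knockdown and 76.4% in control. The 57-base exon of EIF4G1 and the 176-base exon of EIF6 were in 100% in both. A 75-base acceptor extension in EIF3B was in 50.6% in the library labelled knockdown and 53.3% in control, but on RefSeq models alone in 50.6% in the library labelled knockdown and 0% in control. The tandem acceptors were used in mixtures. The EIF2B4 form that keeps the 3 capital bases held 65.2% of the FPKM in the library labelled knockdown and 54.8% in control, all on RefSeq models. The EIF4G1 form that keeps them held 21.3% in the library labelled knockdown and 40.3% in control, and a like 3-base acceptor in EIF4G3 28.8% in the library labelled knockdown and 48.9% in control. Both directions turned on RefSeq models alone, with 21.3% in the library labelled knockdown and 15.1% in control for EIF4G1, and 69.7% in the library labelled knockdown and 48.9% in control for EIF4G3. The assembled models behind this had 58.2 FPKM in control for EIF4G1 and 9.14 FPKM in the library labelled knockdown for EIF4G3, and neither was found in the other library. Over all RefSeq acceptor pairs, 3 of 7 in members and 31.1% in all genes differed by 10 points or more, and for donors 0 of 8 and 27.0%. On RefSeq models alone 3 of 7 acceptors differed, now in EIF2B4, EIF3B and EIF4G3, against 23.8% in all genes, and 0 of 8 donors, against 22.2%. With assembled models counted too, 8 of 12 acceptors and 6 of 15 donors of members did, against 59.9% and 56.6% in all genes. Retained introns differed by that much in 18 of 25 cases, in EIF1, EIF2B5, EIF3A, EIF4A1 and EIF4A2, against 67.6% in all genes. These cases are not separate, since 1 model can keep several introns. Those of EIF4A1 all came from its 14-exon assembled model in the library labelled knockdown. In EIF3A the kept form was the RefSeq exon, and an assembled control model with 31.6% of the FPKM spliced 120 bases out of it.

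**Figure D5:**
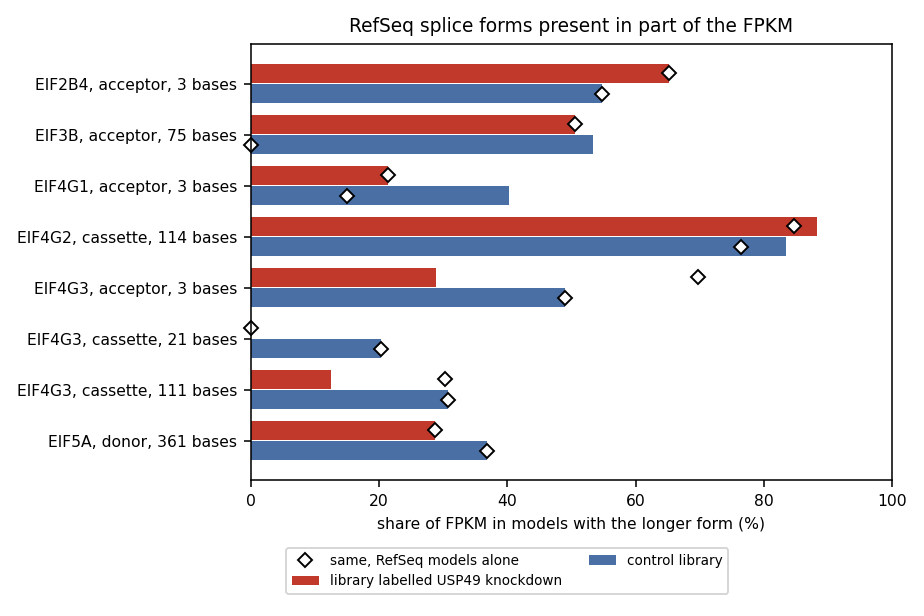
Share of FPKM (%) in models with the longer form for 8 splice events of members whose forms are both in RefSeq and both used, in the library labelled knockdown (red, upper bar) and control (blue, lower bar), over all models that carry either form; open diamonds give the share on RefSeq models alone. For the EIF4G1 and EIF4G3 acceptors the bar is lower and the diamond higher in the library labelled knockdown than in control, and the control diamond of EIF3B is at 0%.

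Summing FPKM over models gave 1 member lower by 2-fold, EIF4A2 at −1.28, and 0 higher, against 1.80% and 1.54% of all genes. Past 0.32, EIF4A1 and EIF5 were higher and EIF2S1 and EIF4A2 lower by that sum, 2 each way, against 7.77% higher and 9.23% lower. The set of models itself was often unlike. The share of a RefSeq intron chain differed by 20 points or more for 14 of 37 members, against 36.2% of 11064 spliced genes. They were EIF2A, EIF2S1, EIF3A, EIF3B, EIF3D, EIF3F, EIF3K, EIF4A1, EIF4A2, EIF4E, EIF4EBP2, EIF4G3, EIF4H and EIF5. With shares of fragments in place of FPKM, 11 of the 37 members differed by that much, with no like share for all genes. Short models weigh more in FPKM: the short control model of EIF2S1 held 54.0% of its FPKM and 19.3% of its fragments. In EIF3D, 100% of the FPKM in the library labelled knockdown lay on the RefSeq chain and 58.6% in control, and in EIF4EBP2 100% in the library labelled knockdown and 77.6% in control. In EIF4E, the RefSeq chain NM_001130678 held 33.9% in the library labelled knockdown and none in control, where 3 assembled models carried the gene. In EIF3B, NM_001037283 held 50.6% in the library labelled knockdown and was absent from control, where an assembled chain with another acceptor took 53.3%. Models with the same introns carried 14 members in both libraries, and 41.7% of all genes.

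Some unannotated features recurred in both assemblies, which were built apart. EIF3A models with the RefSeq introns ended 1029 bases before the RefSeq 3′ end in the library labelled knockdown and 1028 bases before it in control, and held 76.6% of the FPKM in the library labelled knockdown and 48.2% in control. A further 8-exon control model of EIF3A, with 31.6% of the FPKM there, had the same early end. The shares of models with the RefSeq introns thus do not measure use of that end. Models of EIF3M ended 90 bases early in the library labelled knockdown, with 51.7% of the FPKM, and 116 bases early in control, with 54.1%. Models of EIF5B ended 755 bases early in the library labelled knockdown, with 65.2%, and 936 bases early in control, with 47.3%. A 14-exon form of EIF4G2 that begins inside the gene held 22.8% in the library labelled knockdown and 30.3% in control, and a 3-exon form at the end of EIF4B 14.2% in the library labelled knockdown and 22.1% in control. EIF3F models ran past the RefSeq 3′ end in both, to 7979967 on chromosome 11 in the library labelled knockdown, with 44.3% of the FPKM, and to 7979972 in control, with 12.0%. Other early ends were seen in 1 library: 359 bases for EIF3I in the library labelled knockdown, with 76.6% of its FPKM, and 163 bases for EIF2B2 and 286 for EIF3L in control, with 42.2% and 41.4%.

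Start sites were read for pyrimidine tracts, since they link these mRNAs to TOP control. The RefSeq promoter table on GRCh38.p14 matched 31 of the 38 members. The pattern searched was a C as the first transcribed base followed by at least 4 bases of C or T, on the transcribed strand. Such a start was listed for 7 of the 31, against 7.59% of 9303 measured genes in the table and 4.07% of all 35116 promoters. The windows below hold 20 bases before the start and 10 from it, with the pyrimidine run in capitals, and EIF4A1 is shown without capitals as the paralogue that lacks the run.
EIF2A start: aactctcacccgagcggtttCTCTTTCCgg
EIF4A2 start: gggtggttgggcgccgctgtCTTTTCagtc
EIF4A1 start: tcgataggcgggcactccgccctagtttct
EIF3D start: ccgctgcgcgcgcatgtttcCTCTTTTCCT
EIF3F start: gtcatttccgcttccgcctcCTTCTTTCTC
EIF3K start: gtcgtttccgtttccaccacCTCTTCCTgt
EIF3M start: gcgtcgcgcggcccagttccCTTTTCCggt
EIF4B start: cgtgattgcctcatccgggtCTTTTgcgtt

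The log2 ratios of these 7 genes, from all models, ran from −0.14 to 0.20 with a median of 0.07, and those of the 23 measured members without the run from −0.18 to 0.20 with a median of 0.0032. EIF2A at 0.20, EIF3K at 0.17 and EIF4A2 at 0.13 were the higher ones among the 7, and EIF3F at −0.14 and EIF4B at −0.07 the lower ones. The ranges overlap over nearly their whole length. A match in these windows describes the annotated start and not the start used in these cells.

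Genes around the pathway were also close between the libraries. Of 19 measured further initiation genes, 9 had ratios above 0 and 10 below, and 1 was past 0.32 from the genes' own models, EIF2S3, the gamma subunit of eIF2. It had 21.1 FPKM in the library labelled knockdown and 34.4 in control, a log2 ratio of −0.68, and −0.18 with all models counted. With all models, 20 genes were measured, none was past 0.32 downward and 1 was upward, EIF4EBP3, a 4E-BP with 10.2 FPKM in the library labelled knockdown and 7.20 in control, a log2 ratio of 0.45, though the intervals overlapped. Its own models went the other way, with 0 FPKM in the library labelled knockdown and 1.58 in control. That was a log2 ratio of −1.37 with intervals apart, at a mean below 1 FPKM. All of its level in the library labelled knockdown thus came from other overlapping models. EIF1AX was at 0.25 (0.08 with all models) and the helicase gene DDX3X at 0.11. Of 17 regulators, including the eIF2 kinases and mTOR, none was past 0.32, with a median of −0.0075. EIF2AK2, the kinase PKR that senses double-stranded RNA, had the largest ratio, 0.32, with 18.2 FPKM in the library labelled knockdown and 14.4 in control, just under the threshold, followed in size by RPTOR, the mTORC1 subunit, at −0.12 and IMPACT at 0.11. Of 10 elongation and termination genes, 1 was past 0.32, EEF1A1, with 12.7 FPKM in the library labelled knockdown and 19.9 in control (−0.61, and −0.37 with all models), and EEF1G and EEF1B2 followed at −0.19 and −0.17. Pseudogenes were counted for the members alone. The part of shared reads in the level and ratio of EEF1A1 was not tested, and both are uncertain for that reason. Of 9 measured genes of the ATF4 list, ATF4 itself included, 7 had ratios above 0 and none was past 0.32 from their own models. ATF4 is the factor that phosphorylated eIF2 raises, and it had 43.2 FPKM in the library labelled knockdown and 47.8 in control, a log2 ratio of −0.14 with intervals apart. The largest ratios were CHAC1 at 0.29, CEBPB at −0.15 and TRIB3 at 0.14. With all models DDIT3, the stress factor CHOP, was measured too and was 1 of 10 past 0.32, with 6.15 FPKM in the library labelled knockdown and 8.76 in control, a log2 ratio of −0.45 with intervals apart, and its own models were listed at 0 in both.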

How the data were processed

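Per the submitters' processing notes, the authors used TopHat, Bowtie, SAMtools, Picard, Cufflinks and bedtools on hg18, with versions not given in the sources used here. The deposited files are 1 Cufflinks assembly per library. The value the authors deposited as FPKM carries no depth term, so fragments were recovered from each value and its interval; they were whole within 0.02 for 94.6% of 19675 loci with 1 model in the library labelled knockdown and 94.9% of 18346 in control. Fragments were spread evenly over each model, counted on the union of a gene's RefSeq exons and divided by length less 47 bases and by the library total. The fixed design allowed for scaling by totals if needed. Symbols came from a GRCh38.p14 table, by accession. Ratios used a pseudocount of 1 FPKM, which understates changes of low genes. An alternative exon or site was counted at 5 FPKM in both libraries.

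The members, lists and thresholds were chosen with earlier results of these data known. The naming rule took USP49, every member, full values for the 5 lowest and 5 highest ratios, for members whose sum and exon ratios part by over 0.5, for splice differences of 10 points or chain shares of 20, for EIF4H and for paralogue pairs, and 3 genes of each other list. Splice sites, retained introns and exons with both forms in RefSeq were added after the data were seen, as were shares on RefSeq models alone, pseudogene counts and start sequences. EIF4EBP3, ATF4 and DDIT3 were named after their values were seen. The exon ratio from a gene's own models was tested on simulated counts, drawn for both libraries from the control models. That test did not cover libraries with unlike models, the measure from all models, or the shares of forms. Software was Python 3.11.15, numpy 2.4.6, pandas 2.3.3, scipy 1.17.1 and matplotlib 3.10.9.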

Additional observations from a re-analysis of the deposited data

How the results depend on the processing

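No paired analysis was possible because each group has 1 library. With 0 members past 2-fold, 2 past a log2 ratio of 0.32 in size and 8 with intervals apart as the values reported, the sum over models gave 1 past 2-fold, 4 past 0.32 and a USP49 log2 ratio of −0.88. All models of either strand gave 0 past 0.32, and turned EIF4A1 to −0.085 and EIF4A2 to 0.13. Without scaling to the totals, 18 were past 0.32, 34 had intervals apart, and the median ratio and the median size of a ratio were both 0.32, since the totals differ by 0.29 on the log2 scale. Among the 14 members with the same introns in both libraries, 0 were past 0.32 and 3 had intervals apart, with fewer genes tested. Exons past 10 points numbered 6, against 1 with RefSeq models alone and 2 with both forms in RefSeq. Members with a RefSeq chain share past 20 points numbered 14, against 11 with fragments in place of FPKM. RefSeq models alone turned the acceptor differences of EIF4G1 and EIF4G3, −18.9 and −20.1 points as reported, to 6.25 and 20.7 points, ended that of the 111-base EIF4G3 exon at −0.45 and gave 50.6 for EIF3B. A pseudocount of 0.1, a minimum of 5 FPKM or none, and centring on all genes changed no member's direction. Depth limits EIF3C, at 19.0 fragments in the library labelled knockdown and 10 in control, and EIF4G3 forms; shares of FPKM rest on how each library was assembled, and no replicate checks them.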
